A study of Homo sapiens with 6 samples.

Results

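The aminoacyl-tRNA synthetases and the scaffold proteins that bind them were examined in a comparison of 2 human colon cancer cell lines on Affymetrix arrays. The family was taken as 29 named genes, and every probe set (the group of short probes that reports 1 transcript) annotated to a single gene of the list was read. That gave 23 measured members of the 29, on 34 probe sets, among 11963 genes measured in all. MARS1 and QARS1 have probe sets that carry a second gene symbol and were given no value, and FARSB, AIMP2, EEF1E1 and PARS2 were not analysed here.

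HCT116 is an established colon carcinoma line, which the labels call poorly metastatic. E1 is called metastatic and derived in vivo. The label for its cell line is again HCT116, so both groups carry that background. Each line has 3 arrays of Trizol-extracted total RNA, and no treatment is given for either group. How E1 was selected, and whether the arrays of a line came from separate cultures, is not given in the sources used here, so a p-value reflects how far these arrays scatter, and that scatter may be technical. Of 8 epithelial markers, all measured, 0 were called between the lines in limma. At an unadjusted p under 0.05, 4 were lower and 0 higher in E1, beside 9.7% and 5.29% of all genes. EPCAM and KRT18 read 1691 to 3428 and 5677 to 8466 over the 6 arrays, but KRT8 103 to 4693, CLDN7 143 to 1215 and ELF3 114 to 626. These last 3 stood at -2.91, -1.67 and -1.17 as E1 minus HCT116 log2 values, and at -0.48, -0.46 and -0.07 with E1 array 1 alone. With all arrays KRT18, KRT19 and CLDN4 stood at -0.40, -0.80 and -0.16, and EPCAM and CDH1 at 0.40 and 0.033. The intestinal markers CDX1, CDX2, VIL1 and CDH17 read only 5.50 to 17.2, 4.53 to 22.5, 2.18 to 18.7 and 2.87 to 41.4. LGALS4 and GPA33, also intestinal, reached higher values, at 13.9 to 79.8 and 33.9 to 58.7. Of 17 markers of fibroblasts, endothelium and leukocytes, 15 were measured and 0 were called between the lines in limma, with 1 at an unadjusted p under 0.05. Their summed intensity was 519.5 to 628 on the HCT116 arrays and 453 to 591 on the E1 arrays.

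Each synthetase joins its own amino acid to the matching tRNAs at the cost of ATP, and the charged tRNA is then carried to the ribosome by an elongation factor. In the cytosol several of these enzymes assemble with the scaffold proteins AIMP1, AIMP2 and EEF1E1 into the multi-synthetase complex, and the others work outside it. Mitochondria use a separate set of nuclear-encoded enzymes, except that GARS1 and KARS1 each encode a cytosolic and a mitochondrial form. When amino acids run short, uncharged tRNA activates the kinase GCN2, which favours translation of the transcription factor ATF4, and ATF4 raises genes of amino acid synthesis and uptake together with many cytosolic synthetase genes. Other stress kinases reach ATF4 as well.

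Of the 23 measured members, 0 were called lower and 0 higher in E1 by limma at an adjusted p under 0.05, where 0.201% and 0.217% of all genes were called. Leaving out E1 array 1 kept only E1 arrays 2 and 3, whose 3' to 5' control ratios for GAPDH were 34.1 and 71.9, against 0.80 on array 1. In that setting 1 member was called lower, VARS1, at -2.34 on the log2 scale. The share of all genes called in that setting is not given here. The family was selected on these same E1 and HCT116 intensities, in view of how they differed, so its counts and differences are given as a description and nothing is read from them. At an unadjusted p under 0.05, 1 member was lower, VARS1, and 0 were higher, beside 9.7% and 5.29% of all genes. The 3 E1 arrays lay above the 3 HCT116 arrays for 1 member, HARS2, and below them for 0, beside 8.18% and 10.7% of all genes. Differences are given as E1 minus HCT116 on the scale of log2(intensity + 32), many of them followed by the standard error from limma (SE). The offset of 32 understates the change of dim probe sets. The median difference of the 23 members was -0.063, against -0.0055 for all genes. It stood at 0.087 when array medians were subtracted and at 0.0030 after quantile normalization, so its sign depended on the scaling between arrays. The median of all genes moved as well, to 0.14 and 0.072, and the family's median lay below it in each of these scalings. Without HCT116 array 2 the family's median lay above it, at -0.0043 against -0.024. An array of bulk RNA cannot tell fewer expressing cells from less RNA per cell.

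**Figure D1:**
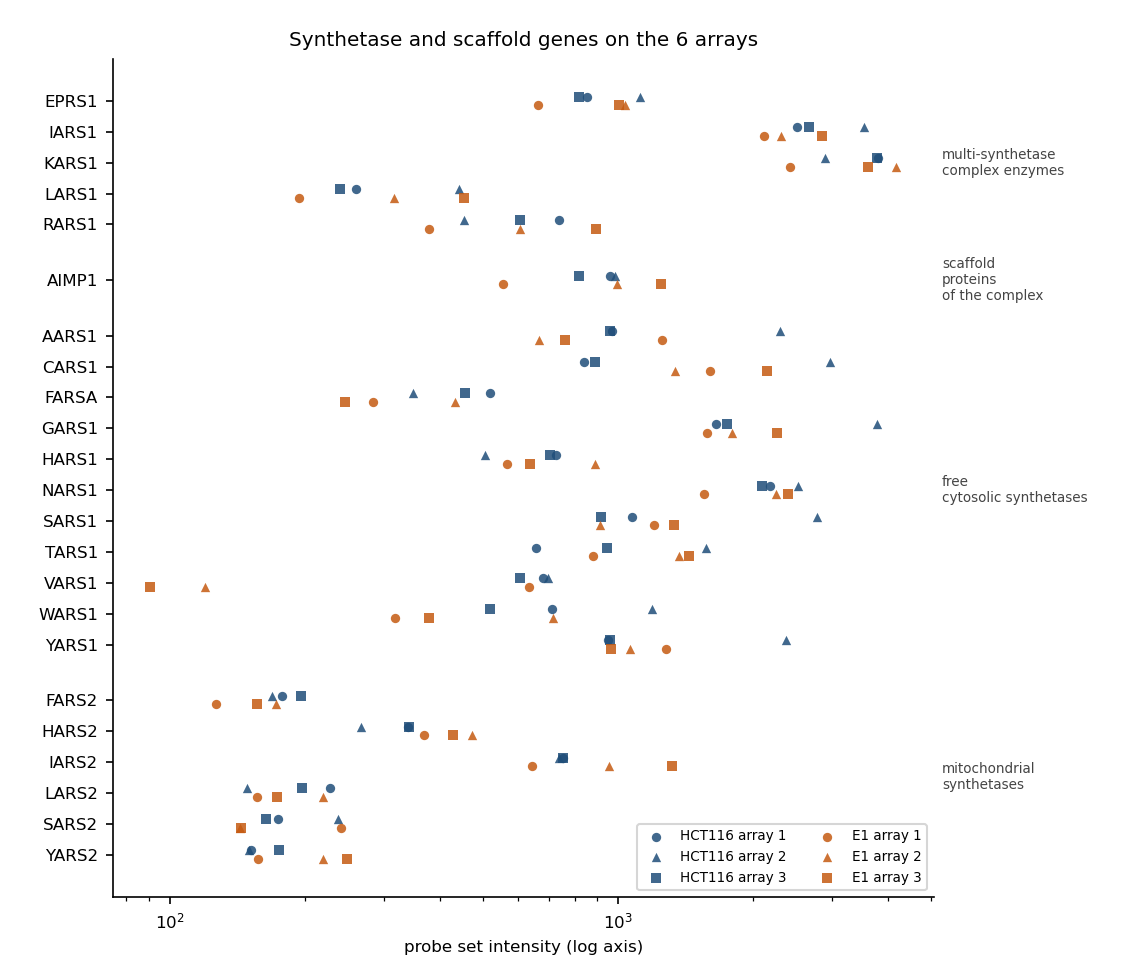
Probe set intensity (log axis) of the 23 measured members on the 3 HCT116 arrays (blue) and the 3 E1 arrays (orange), 1 symbol shape per array number. HCT116 array 2 (blue triangles) lies to the right of the other arrays for AARS1, CARS1, GARS1, SARS1 and YARS1, and E1 arrays 2 and 3 lie far to the left for VARS1.

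The arrays of a line were not alike. For GAPDH, the ratio of 3' to 5' control signal was between 0.774 and 0.811 on the HCT116 arrays and E1 array 1, but 34.1 and 71.9 on E1 arrays 2 and 3. Differences with E1 array 1 alone are therefore given for the members as well. That array differed from the other E1 arrays too. It read over 2-fold above both of them for 539 of 11963 genes, among them 6 of 32 measured amino acid response genes and 1 of 23 members, VARS1. Among the HCT116 arrays, array 2 read over 2-fold above both others, on the log2(intensity + 32) scale, for 107 of 11963 genes (0.894%). The same count was 11 genes for array 1 and 4 for array 3. It was 5 of the 23 members for array 2, and 0 for each of the other HCT116 arrays. These 5 were noticed in the values and not chosen beforehand. Subtracting array medians, quantile normalization and offsets of 1 and 100 each returned the same 5 genes. Leaving out probe sets ending in _x_at or _s_at returned 3 of the 17 members then measured, AARS1, CARS1 and SARS1, since GARS1 and YARS1 have no other probe set.

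All 5 are cytosolic enzymes outside the multi-synthetase complex. AARS1, which charges tRNA with alanine, read 969, 2296 and 959 on HCT116 arrays 1, 2 and 3. Array 2 stood 2.38-fold above the mean of the other 2. CARS1, the cysteine enzyme, read 841, 2969.8 and 890.4, which placed array 2 3.43-fold above the mean of the others, the largest such departure in the family. Its second probe set departed by nearly the same amount, at 1.71 against 1.74 on the log2 scale. GARS1, the glycine enzyme, read 1656, 3773 and 1755. SARS1, the serine enzyme, read 1073, 2777 and 918. In each of these genes HCT116 arrays 1 and 3 lay close together and array 2 lay far above them. YARS1, the tyrosine enzyme, read 950.1, 2367 and 958, with array 2 2.48-fold above the mean of the others. TARS1 and WARS1, which charge threonine and tryptophan, came next, at 657, 1569 and 945 for TARS1 and 712, 1192 and 519 for WARS1, without reaching 2-fold above both other arrays.

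The departure was not shared by the whole family. On HCT116 array 2, 14 of the 23 members read higher than on both other HCT116 arrays and 9 read lower than on both. Of all 11963 genes, 3548 read higher than on both and 5339 lower. The 9 lower members were FARSA, HARS1, KARS1 and RARS1 in the cytosol and FARS2, HARS2, IARS2, LARS2 and YARS2 in mitochondria. KARS1, the lysine enzyme, read 3798, 2891 and 3791, and RARS1, the arginine enzyme, 739, 454 and 604. The median departure of array 2 was 0.96 on the log2 scale for the 11 free cytosolic enzymes, 0.41 for the 5 measured enzymes of the complex and -0.11 for the 6 mitochondrial ones. Over all genes it was -0.053. By catalytic fold, the 10 measured class I enzymes had a median of 0.28 and the 11 class II enzymes one of 0.23, with EPRS1 left out because it joins a domain of each class. Both classes held genes that departed, 2 of class I (CARS1 and YARS1) and 3 of class II (AARS1, GARS1 and SARS1).

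Genes of the amino acid response departed on the same array. Of 36 listed genes of GCN2 and ATF4 signalling and its outputs, 32 were measured and 17 (53.1%) read over 2-fold above both other HCT116 arrays on array 2, with a median departure of 1.15 on the log2 scale. ATF4 itself read 1582, 5168 and 2211 on HCT116 arrays 1, 2 and 3. CEBPB, a partner of ATF4 on DNA, read 1030.0, 3289.6 and 959. The mitochondrial folate enzymes of serine use stood closer together, with MTHFD2 at 1633, 2589 and 1621 and SHMT2 at 1784, 2133 and 1477. Named after their values were seen, the glutathione-degrading enzyme CHAC1 read 60.5, 1439 and 94.3, the pseudokinase TRIB3 693, 3638 and 525 and asparagine synthetase, ASNS, 1993, 4717 and 441. For ASNS array 1 also stood above array 3. In the other lists of the pathway 0 genes passed the same limit, which 0.894% of all genes passed. A count of 0 in lists of this size is near that share. The lists held 8 measured elongation factors, 34 genes of tRNA processing, modification and export, and 4 measured synthetases that are not among the 29. Their median departures were 0.11, -0.27 and -0.078. How the sample of HCT116 array 2 differed from the others is not given in the labels, and no cause of its values was tested.

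**Figure D2:**
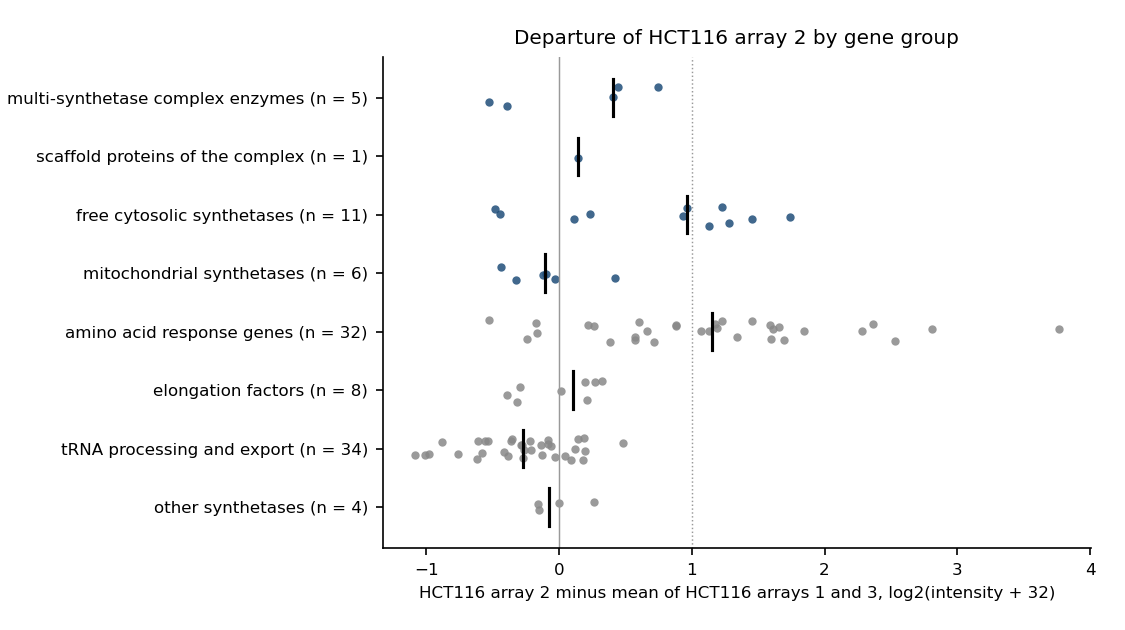
Intensity on HCT116 array 2 minus the mean of HCT116 arrays 1 and 3, on the log2(intensity + 32) scale, for the members by role (blue) and for 4 lists of related genes (grey). Each point is 1 gene, the black bar is the median of the group and the dotted line marks 2-fold. The free cytosolic enzymes (median 0.96) and the amino acid response genes (median 1.15) lie to the right, and the mitochondrial enzymes (median -0.11) near 0.

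ATF4 binds as a dimer with C/EBP proteins to a composite DNA element, so the start regions of the members were searched for its core, TGATGNAA, on both strands. RefSeq promoter windows (GRCh38.p14, 250 bases before to 50 after each start) were held for 26 of the 29 members, and for 20 of the 23 measured ones. LARS1, VARS1 and YARS1 had none. The core was present for 7 of these 20 members (35.0%), against 3.43% of the 9563 measured genes with a window. A gene with several windows counted once. Of the 5 members that departed on HCT116 array 2, 4 had a window and 3 of these held the core, AARS1, CARS1 and GARS1. It was also found for 4 of the 16 other measured members, IARS1, NARS1, TARS1 and YARS2, and for 8 of 26 amino acid response genes (30.8%). For CARS1, TARS1 and NARS1 the match reached or lay beyond the start. The 4 matches that lie wholly upstream are shown in the gene's own direction, 5′ to 3′, with the core in capitals, so that their place and flanks can be compared:
AARS1 (chr16:70289661-70289718, minus strand): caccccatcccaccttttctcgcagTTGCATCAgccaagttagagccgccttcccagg
GARS1 (chr7:30594820-30594877, plus strand): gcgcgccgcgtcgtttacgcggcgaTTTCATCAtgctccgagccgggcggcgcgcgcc
IARS1 (chr9:92293698-92293735, minus strand): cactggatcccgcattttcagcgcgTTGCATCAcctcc
YARS2 (chr12:32756062-32756119, minus strand): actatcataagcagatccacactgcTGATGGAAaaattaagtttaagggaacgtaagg

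The cores of AARS1 and IARS1 are identical and lie on the opposite strand, beginning 187 and 13 bases before the start. That of GARS1 lies on the opposite strand at 33 bases, and that of YARS2 on the gene's own strand at 197 bases. Of these 4 genes, AARS1 and GARS1 departed on HCT116 array 2, by 1.22 and 1.13 on the log2 scale, IARS1 stood at 0.45 and YARS2 at -0.095. The E-box CACGTG, bound by MYC and its partners, does not overlap that core. It was found for 1 of the 20 measured members, IARS1, and for 12.0% of measured genes. A match describes the sequence and is not evidence that a factor binds there.

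The 5 enzymes were picked for their high values on HCT116 array 2, so leaving that array out raises E1 minus HCT116 for each. The sign changed for SARS1, YARS1 and GARS1 but not for AARS1 and CARS1. AARS1 read 1253, 666 and 759.9 on E1 arrays 1, 2 and 3, a difference of -0.57 (SE 0.40) with all arrays and -0.16 without HCT116 array 2. SARS1 read 1206, 911 and 1332 on the E1 arrays, and its difference went from -0.30 (SE 0.42) to 0.19 without that array. YARS1 read 1282, 1063 and 963 and went from -0.23 to 0.19. Its E1 arrays all lay above HCT116 arrays 1 and 3 and below array 2. GARS1 read 1579, 1796 and 2261 and went from -0.25 to 0.12. CARS1 was higher in E1 either way, at 1602, 1341 and 2152, with 0.34 (SE 0.49) from all arrays and 0.92 without HCT116 array 2. TARS1 read 879.9, 1366 and 1439 and went from 0.27 to 0.59. With E1 array 1 alone, AARS1, CARS1, GARS1, SARS1 and YARS1 stood at -0.041, 0.28, -0.49, -0.21 and -0.014. TARS1 stood at -0.17 with that array, the opposite sign to its value from all arrays. For the 5 genes together the median difference was -0.25 with all arrays and 0.19 without HCT116 array 2. For the other 18 measured members it was -0.055 and -0.069. The shift of the 5 follows from how they were picked, and nothing is read from its contrast with the 18.

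**Figure D3:**
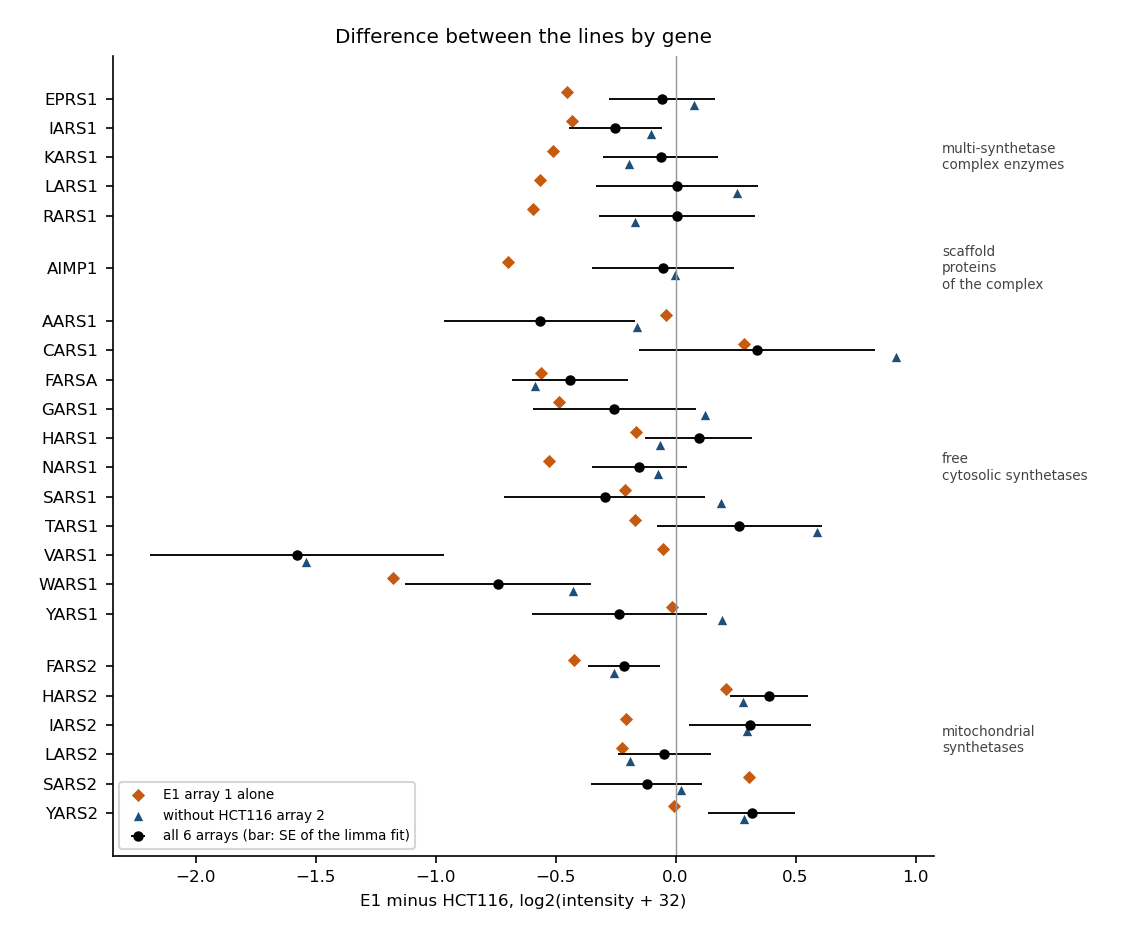
Difference between the lines, E1 minus HCT116, on the log2(intensity + 32) scale for each measured member, with all 6 arrays (black, bar: SE of the limma fit), with E1 array 1 alone (orange diamonds) and without HCT116 array 2 (blue triangles). AARS1, GARS1, SARS1 and YARS1 move to the right without HCT116 array 2, and VARS1 lies near 0 with E1 array 1 alone.

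On their main probe sets, the 5 measured enzymes of the multi-synthetase complex had differences from -0.25 to 0.0067 with all arrays. Other probe sets of EPRS1 gave lower values, described further on. IARS1, the isoleucine enzyme, read 2512, 3536 and 2661 in HCT116 and 2118, 2307 and 2854 in E1, a difference of -0.25 (SE 0.19). KARS1 read 2419.7, 4179 and 3606 in E1, at -0.063 (SE 0.24). The leucine enzyme LARS1 stood at 0.0066 (SE 0.34) and RARS1 at 0.0067 (SE 0.33). EPRS1, which charges both glutamate and proline, stood at -0.057 (SE 0.22) on its main probe set, the brightest of its probe sets by mean log2 intensity. The scaffold protein AIMP1, at -0.053 (SE 0.29), read 962, 986 and 819 in HCT116 and 553, 995 and 1249.9 in E1. E1 array 1 was the lowest of the 6 arrays for all of these 6 genes. With that array alone, the 5 enzymes of the complex stood between -0.59 and -0.43, and AIMP1 at -0.70. Over the whole family, E1 array 1 lay below all 3 HCT116 arrays for 12 of 23 members, against 33% of all genes, and above them for 2, against 24.7%. The median difference of the family with E1 array 1 alone was -0.22, against -0.047 for all genes.

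Among the other free cytosolic enzymes, VARS1 had the most negative difference. This valine enzyme read 680.2, 697 and 606 in HCT116 and 635, 120.2 and 90.3 in E1 on its main probe set, 661 ± 48.4 (SD, n = 3) against 282 ± 306 (SD, n = 3), a difference of -1.58 (SE 0.61). E1 array 1 lay within the HCT116 range, and E1 arrays 2 and 3, those with high 3' to 5' control ratios, lay far below it. With E1 array 1 alone the difference was -0.053. WARS1, which is also known as an interferon-induced gene, read 319, 716 and 379 in E1, at -0.74 (SE 0.39), and -1.18 with E1 array 1 alone. Of its E1 arrays, 1 and 3 lay below every HCT116 array and array 2 within their range. FARSA, the catalytic subunit of the phenylalanine enzyme, read 519, 349.7 and 456 in HCT116 and 285, 434 and 246 in E1, at -0.44 (SE 0.24), with array 2 of each line overlapping the other line, and at -0.56 with E1 array 1 alone. HARS1 and NARS1, for histidine and asparagine, stood at 0.10 (SE 0.22) and -0.15 (SE 0.20), and at -0.16 and -0.53 with E1 array 1 alone.

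The mitochondrial enzymes spanned differences of -0.22 to 0.39, with a median of 0.13. HARS2 read 340.3, 267 and 342 in HCT116 and 368, 473 and 428 in E1, a difference of 0.39 (SE 0.16), and its arrays did not overlap between the lines. With E1 array 1 alone it stood at 0.21. HARS2 arose as a duplicate of the cytosolic enzyme HARS1, and probes of such close copies can share signal. IARS2 read 753, 738 and 756 in HCT116, 3 nearly equal values, and 644, 955 and 1323 in E1, at 0.31 (SE 0.25). Only its E1 arrays 2 and 3 lay above HCT116, and with E1 array 1 alone it stood at -0.21. YARS2 stood at 0.32 (SE 0.18) and -0.0083 with E1 array 1 alone. SARS2, LARS2 and FARS2 stood at -0.12, -0.046 and -0.22 with all arrays, and each overlapped between the lines. With E1 array 1 alone they stood at 0.30, -0.22 and -0.42, so that SARS2 changed sign.

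Different probe sets of 1 gene gave different answers for 3 members. Of the 23, 14 had a single probe set and 9 had several, with 11 probe sets beside the main ones. Of these 11, 4 differed from the main probe set by over 1 on the log2 scale, in EPRS1, VARS1 and FARSA, and the other 7 by 0.031 to 0.80. The opposite sign appeared for 1 probe set each of AIMP1, at 0.06 against -0.053, and FARS2, at 0.10 against -0.22. In the limma fit over 19065 single probe sets, 3 of the 34 probe sets of the family were called lower in E1 at an adjusted p under 0.05 and 0 higher, where 0.624% and 0.247% of all probe sets were called. At an unadjusted p under 0.05, 6 were lower and 1 higher, beside 12.1% and 4.76% of all probe sets. The arrays of the lines did not overlap for 5 lower probe sets and 1 higher, beside 13.4% and 7.44% of all probe sets.

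EPRS1 held 2 of the 3 called probe sets. Probe set 200841_s_at read 319, 518 and 268 in HCT116 and 68.7, 40.1 and 15.7 in E1, a difference of -2.46 (SE 0.34), and -1.94 with E1 array 1 alone. Probe set 200842_s_at read 1033, 1232 and 885 and 259, 405 and 218, at -1.76 (SE 0.24) and -1.88 with E1 array 1 alone. On both, all E1 arrays lay below all HCT116 arrays, array 1 included. The main probe set, 200843_s_at, read 854, 1120.1 and 820.3 and 665, 1035 and 1007, and its lines overlapped. The 2 EPRS1 calls were each made in 4 of 7 other settings that kept all arrays, and in 1 of 7 with fewer arrays, that without E1 array 1. The values stayed between -3.29 and -1.71 for 200841_s_at and between -1.99 and -1.56 for 200842_s_at over those settings.

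The third called probe set was 201796_s_at of VARS1, which read 196, 230.1 and 248 in HCT116 and 8.91, 8.72 and 7.71 in E1, a difference of -2.66 (SE 0.13). All 3 E1 values were low and nearly equal, and E1 array 1 alone gave -2.64. The main VARS1 probe set, 201797_s_at, gave -0.053 for that same array, so the 2 probe sets disagreed on the array whose control ratios matched those of HCT116. The call on 201796_s_at was made in 6 of 7 other settings with all arrays, the exception being the fit with the replicate number as a block, and in 6 of 7 with fewer arrays, the exception being E1 array 1 alone. Its value ranged from -4.57 with an offset of 1 to -1.58 with an offset of 100.

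For FARSA, whose main probe set is given above, the other probe set read lower on all E1 arrays. Probe set 216602_s_at read 658, 438 and 575 in HCT116 and 367, 95.2 and 28.3 in E1, at -2.00 (SE 0.66). E1 array 1 lay below every HCT116 array, at -0.54 by itself, and E1 arrays 2 and 3 lay further below. The main probe set gave -0.56 for that array, nearly the same value. E1 arrays 2 and 3 both read over 2-fold below E1 array 1 on 2 of the 34 probe sets, 216602_s_at and the main VARS1 probe set, beside 4.89% of all probe sets. For WARS1, named here after its values were seen, probe set 200628_s_at read 489, 613 and 454 and 259, 142 and 99.1, at -1.54 (SE 0.30), against -0.91 from E1 array 1 by itself. Its main probe set stood at -0.74 and -1.18. Both WARS1 probe sets were thus lower on E1 array 1 than on every HCT116 array. Which part of each transcript a probe set covers is not given in the tables used here, and the part of the control ratios in these values was not tested.

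**Figure D4:**
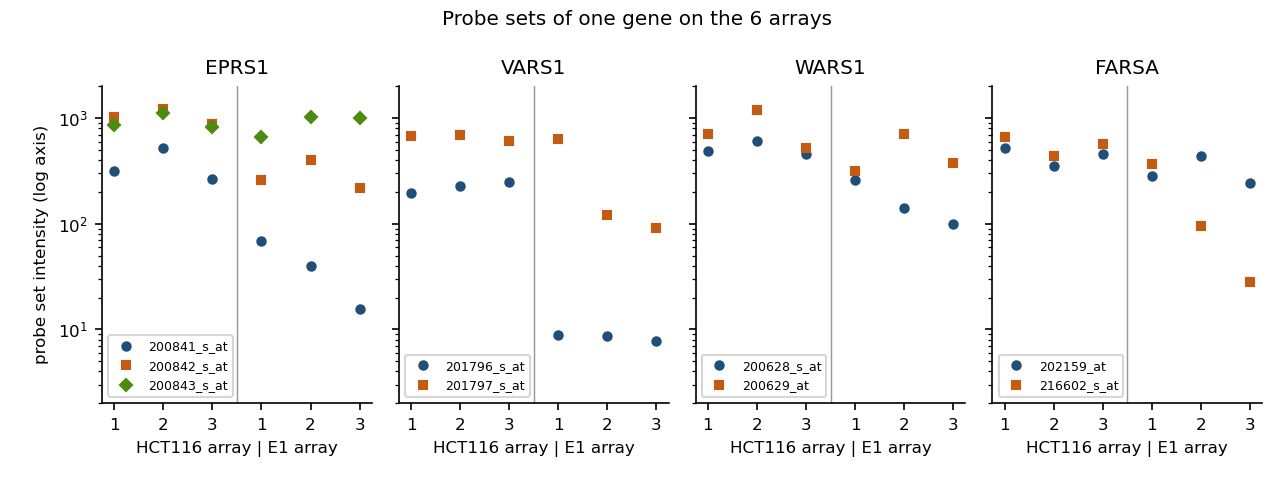
Intensity (log axis) of each probe set of EPRS1, VARS1, WARS1 and FARSA on the 3 HCT116 arrays (left of the line) and the 3 E1 arrays (right), 1 symbol per probe set. EPRS1 200841_s_at and 200842_s_at and VARS1 201796_s_at are low on all E1 arrays, whereas on VARS1 201797_s_at E1 array 1 lies among the HCT116 arrays. On FARSA 216602_s_at E1 array 1 lies below the HCT116 arrays, and E1 arrays 2 and 3 lie further below.

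The genes around the family were compared between the lines in the same fit. Of the 8 measured elongation factors, 0 were called in limma, and 3 were lower and 0 higher at an unadjusted p under 0.05, with a median of -0.23. Of all genes, 9.7% were lower and 5.29% higher by that limit. EEF1A1, which delivers charged tRNA to the ribosome, stood at -0.015 (SE 0.15), EEF2, the translocation factor, at -0.58, the mitochondrial factor TUFM at -0.69 and the exchange factor subunit EEF1D at -0.03. With E1 array 1 alone these 4 stood at 0.073, -0.12, -0.44 and -0.17. The 3 lower genes were EEF2, TUFM and, named after its values were seen, EEF1A2, which read 2846, 3176 and 2696 in HCT116 and 2692, 36.3 and 40.3 in E1. EEF1A2 stood at -3.62 (SE 1.38) from all arrays but -0.11 from E1 array 1 by itself, so its low values are those of E1 arrays 2 and 3. Of the 34 genes of tRNA processing, modification and export, 1 was called lower and 0 higher, and 8 were lower and 0 higher at an unadjusted p under 0.05, beside the same shares of all genes. The called gene was QTRT1, the catalytic subunit of the enzyme that places queuine in tRNA. It read 72.0, 63.2 and 84.5 in HCT116 and 12.7, 4.62 and 13.1 in E1, fell by 1.32 on the log2 scale (SE 0.15), and stood at -1.23 with E1 array 1 alone. Those with the highest signal, the methyltransferase TRMT5, the helicase DDX1, the splicing endonuclease subunit TSEN34 and the RNase P subunit POP5, stood at -0.21, 0.035, 0.22 and -0.14, and at -0.63, -0.52, 0.031 and -0.49 with E1 array 1 alone. Over all 34 genes the median was -0.21.

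Of the 32 measured amino acid response genes, 0 were called in limma, and 5 were lower and 0 higher in E1 at an unadjusted p under 0.05, beside 9.7% and 5.29% of all genes. Their median difference was -0.30 with all arrays and -0.031 without HCT116 array 2, where the median of all genes was -0.024. ATF4 read 3043, 2172 and 2189 in E1, at -0.11 (SE 0.43), and CEBPB 2261, 1576 and 2564, at 0.48 (SE 0.48). For both genes every E1 array lay below HCT116 array 2 and above HCT116 array 1. HCT116 array 3 lay below every E1 array for CEBPB, but above E1 arrays 2 and 3 for ATF4. MTHFD2 and SHMT2 stood at 0.0026 and 0.10. With E1 array 1 alone ATF4, CEBPB, MTHFD2 and SHMT2 stood at 0.21, 0.60, -0.20 and 0.28. Of the 4 measured synthetases outside the 29, NARS2, CARS2, WARS2 and RARS2, 0 were called in limma and 0 had an unadjusted p under 0.05, with differences from -0.22 to 0.16.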

How the data were processed

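Total RNA of the 6 cell line samples had been labelled with biotin for Affymetrix arrays, per the labels. Intensities in the deposited table are on a linear scale and cover 22283 probe sets on each array. Their summarization, background correction and scaling are not stated in the sources used here. No column lacked a sample. Intensities were transformed as log2(intensity + 32), with no further normalization. After 68 control probe sets were removed, 19065 probe sets carried 1 gene symbol, 1043 several and 2107 were not listed with one. Symbols were checked by Entrez number against RefSeq (GRCh38.p14), which held 11954 of the 11963 genes. A gene took the value of its brightest probe set, by mean log2 intensity. E1 and HCT116 were tested against each other with lmFit and eBayes (no trend) of limma 3.58.1, run in R 4.3.3, two-sided, with Benjamini-Hochberg adjustment over all genes, and again over single probe sets. The scripts were tested on simulated data. The members and lists were chosen with earlier results of these data known. All measured members are named. Other probe sets of a member are named where they differ in sign, or by over 1 on the log2 scale at a mean intensity of at least 100. Of each related list the 4 genes with the highest mean are named and every called gene. WARS1 200628_s_at, CHAC1, TRIB3, ASNS, EEF1A2 and the epithelial and intestinal markers were named after their values were seen. The alternatives were other scalings, offsets of 1 and 100, the lowest 40% of genes left out, averaging all probe sets of a gene, dropping those with the ending _x_at or _s_at, trended robust eBayes, the replicate number as a block, each array left out in turn and E1 array 1 alone. The number of arrays limits the precision. Protein sequences were not used here.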

Additional observations from a re-analysis of the deposited data

How the results depend on the processing

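In limma 0 members were called at an adjusted p under 0.05 in either direction in the main setting and in each alternative, except that 1, VARS1, was lower when E1 array 1 was left out, so that range was 0 to 1. At an unadjusted p under 0.05, 1 member was lower in the main setting. That count was 0 after quantile normalization, with an offset of 100 and without the _x_at and _s_at probe sets, 4 with probe sets averaged per gene and 2 with E1 array 1 alone, and 0 to 2 when each array was left out in turn. The count higher, 0 in the main setting, was 2 after quantile normalization, 1 with array medians subtracted, with an offset of 100, with the mean of probe sets and without the _x_at and _s_at probe sets, and 0 to 3 when each array was left out. Members whose arrays lay apart and lower numbered 5 with the mean of probe sets and 0 to 3 with each array left out, against 0. With E1 array 1 alone they numbered 12, beside 33% of all genes. Those apart and higher numbered 1 to 4 with each array left out, against 1, and 2 with E1 array 1 alone, beside 24.7% of all genes. No share of all genes is given for the other counts of the alternatives above, so nothing about the family is read from them. The median difference, -0.063, was 0.087 with array medians subtracted, a setting that moved the median of all genes from -0.0055 to 0.14, and -0.22 with E1 array 1 alone. It ranged from -0.24 to 0.043 with each array left out. Over the 34 probe sets the median was -0.14, 0.014 with array medians subtracted, -0.011 after quantile normalization, -0.39 with E1 array 1 alone, and -0.26 to -0.045 with each array left out. The count of 5 members that departed on HCT116 array 2 was 3 without the _x_at and _s_at probe sets, where fewer members were measured. These checks of that array were added after its values were seen. The replicate numbers did not pair the samples: deviations of same-numbered arrays correlated at -0.056, -0.36 and -0.12, and 0 of 6 arrays were closest to their own number. With the replicate block 2 members were lower at an unadjusted p under 0.05 in place of 1, and 0 were called at an adjusted p under 0.05. Where no reason is given, the cause of a change was not tested. Of the 362 values of single members over the 16 alternatives, 346 moved by less than 1 SD between arrays and 16 by more. Many of the 346 could not move. Trended robust eBayes, the replicate block and leaving out the lowest genes return the same difference. So does averaging for a member with a single probe set. Most of the 16 came from E1 array 1 alone, for EPRS1, KARS1, LARS1, NARS1, RARS1, VARS1, AIMP1, HARS2, IARS2, FARS2, SARS2 and YARS2. The rest were EPRS1 and FARSA with probe sets averaged, and FARS2 after quantile normalization and with array medians subtracted. Detection calls were not used here, so the lowest signals carry no order.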

Other observations

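E1 array 1 and HCT116 arrays 1 and 3 carry neither the high 3' to 5' control ratios nor the departure of HCT116 array 2. However, E1 array 1 read over 2-fold above both other E1 arrays for 539 of 11963 genes, among them 6 of the 32 of the amino acid response. The values of E1 array 1 and HCT116 arrays 1 and 3 are given here without a test, as a comparison added after the data were seen. For the 5 synthetase genes that departed on HCT116 array 2, E1 array 1 minus the mean of HCT116 arrays 1 and 3 had a median of 0.37 on the log2(intensity + 32) scale, from -0.11 for GARS1 to 0.86 for CARS1. For the 18 other measured members the median was -0.32, from -0.87 for WARS1 to 0.45 for SARS2. The 32 amino acid response genes had a median of 0.24 and all genes one of -0.054. The 5 genes were picked partly because they were low on HCT116 arrays 1 and 3, which raises this difference for them. On the log2 scale, the probe sets of EPRS1 and VARS1 gave different values on E1 array 1 as well, by -1.49 and -1.43 for 200841_s_at and 200842_s_at against the main EPRS1 probe set and by -2.59 for 201796_s_at against the main VARS1 probe set. For FARSA 216602_s_at that split was 0.02, and for WARS1 200628_s_at 0.27.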
